A study of Mus musculus with 12 samples.

Results

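The genes described here are the alpha-defensins and 4 other secreted products of Paneth cells in mouse small intestine. Members were all rows whose gene name starts with Defa followed by a digit or a hyphen, plus Lyz1, Mmp7, Ang4 and Itln1. The rule found 43 of 54532 genes, of which 39 are alpha-defensin rows. Of those 39 rows, 22 are annotated as protein coding and 17 carry Defa-ps pseudogene names. The study sequenced RNA from small intestine of C57BL/6J mice that lack the mechanically gated ion channel Piezo1 in intestinal epithelial cells (CKO), and of mice with the floxed allele intact (flox). Mice of both genotypes were either induced to develop necrotizing enterocolitis (NEC), an inflammatory injury of the newborn bowel, or kept as controls. The 4 groups of 3 libraries were CKO NEC, flox NEC, CKO control and flox control. The sources used here do not give the Cre line, the way NEC was induced, the age of the mice, the segment of bowel, or whether each library came from a separate mouse. All p-values therefore measure the spread between these libraries only.

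Paneth cells sit between the stem cells at the base of small intestinal crypts and secrete granules of antimicrobial proteins into the crypt lumen. In mice they form after birth, as the crypts mature. Alpha-defensins are short cationic peptides held together by disulfide bonds between cysteines, and in mouse they are made as inactive precursors. The metalloprotease Mmp7 cuts these precursors into active peptides. Lyz1 encodes the lysozyme of Paneth cells, which cleaves bacterial cell walls. Itln1 encodes intelectin, a lectin that binds microbial sugars, and Ang4 encodes an angiogenin-family ribonuclease with microbicidal activity.

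The deposited values were FPKM (fragments scaled to the length of the gene and to a library size). They came in 2 tables, 1 for the 6 NEC libraries and 1 for the 6 control libraries, each scaled on its own. Whole reads could be recovered from every value, with 13057724 to 16821130 reads a library. The library size behind the values was not this total of reads. It was 14347697 against 16821130 reads in CKO control library 3, and 16842293 against 15943592 reads in CKO NEC library 1. CKO and flox libraries were compared on the deposited values. NEC and control libraries were compared on values rescaled jointly over all 12 libraries, and levels below are these rescaled FPKM unless stated. Since each condition has a table of its own, condition and table cannot be told apart. Epithelial genes were present throughout, the brush border gene Vil1 lying between 273.8 and 441.2 deposited FPKM. The targeted gene, Piezo1, was at 5.38, 5.58 and 3.23 deposited FPKM in CKO NEC, against 7.38, 7.23 and 6.76 in flox NEC. It was at 1.71, 1.03 and 0.926 FPKM in CKO control, against 1.38, 1.44 and 1.09 in flox control, where the genotypes overlapped. A gene-level value in whole tissue does not show which part of Piezo1 was deleted, or in which cells. Mitochondrial genes took 3.47% to 4.52% of reads in the NEC libraries, 5.11% to 6.76% in CKO control and 11.1% to 14.3% in flox control.

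The alpha-defensin genes lie together on chromosome 8, with 35 rows from position 21025545 to 21750000 and 4 pseudogene rows upstream, the first at 19210462 (GRCm38, as in GENCODE M21 for all 43 members). Reads fell on 22 of the 39 alpha-defensin rows, 19 protein coding and 3 pseudogenes, and the other 17 had 0 reads in all 12 libraries. Defa24 alone had 9151 reads over the 12 libraries. Defa22 followed with 1047, Defa21 with 746, Defa20 with 702, Defa30 with 582, Defa17 with 465 and Defa34 with 328 reads. The other 4 products had 3405 reads (Lyz1), 1548 (Mmp7), 1308 (Itln1) and 264 (Ang4).

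The genes that carry the reads are near copies of each other. The end of the coding sequence, up to the stop codon and including the mature peptide, is shown for the 6 alpha-defensins with the highest mean level, with cysteine codons in capitals (GENCODE M21 transcripts, plus strand of chromosome 8).
Defa24: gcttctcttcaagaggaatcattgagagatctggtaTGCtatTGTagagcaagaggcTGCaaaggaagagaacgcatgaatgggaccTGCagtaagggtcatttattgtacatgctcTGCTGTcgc
Defa30: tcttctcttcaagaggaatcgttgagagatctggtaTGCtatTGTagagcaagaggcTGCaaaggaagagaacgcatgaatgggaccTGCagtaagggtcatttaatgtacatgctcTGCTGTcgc
Defa17: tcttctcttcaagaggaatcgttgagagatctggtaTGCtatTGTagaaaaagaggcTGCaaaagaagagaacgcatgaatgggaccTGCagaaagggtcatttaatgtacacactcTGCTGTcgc
Defa22: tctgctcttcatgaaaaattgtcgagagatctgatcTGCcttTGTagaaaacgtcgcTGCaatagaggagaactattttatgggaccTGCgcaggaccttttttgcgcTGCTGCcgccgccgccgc
Defa21: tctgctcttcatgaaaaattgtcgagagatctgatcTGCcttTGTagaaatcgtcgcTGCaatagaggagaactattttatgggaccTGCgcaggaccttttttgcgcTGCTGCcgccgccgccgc
Defa20: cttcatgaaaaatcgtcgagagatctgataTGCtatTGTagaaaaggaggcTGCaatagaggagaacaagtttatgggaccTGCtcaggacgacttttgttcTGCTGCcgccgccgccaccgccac
Each stretch holds 6 cysteine codons at closely matching places. Over the whole coding sequence, Defa24 was 98.6% identical to Defa30, 95.7% to Defa17, 81.9% to Defa22 and 81.6% to Defa20. Defa21 and Defa22 were 99.3% identical. Coding sequences were the same within 5 pairs, which were Defa17 and Defa3, Defa2 and Defa33, Defa20 and Defa32, Defa23 and Defa31, and Defa36 and Defa37.

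Reads from such copies can be assigned to the wrong gene, and how the authors counted them was not stated in the labels. Cut into windows of 100 bases, 100% of the Defa24 transcript and 99.7% of the Defa30 transcript occurred in no other annotated gene. That share was 59.7% for Defa22, 59.6% for Defa21, 25% for Defa34, 9.40% for Defa17 and 0.307% for Defa20. It was 0% for Defa2, Defa31, Defa33 and Defa37, and 97.4% to 100% for the 4 other products. The sources used here do not state the read length, and shorter windows are shared more. In windows of 50 bases the share was 71.9% for Defa24, 47.6% for Defa30 and 83.9% to 99.0% for the 4 other products. The values of the 4 other products are thus the least exposed to copies, and that of Defa24 the least among the abundant alpha-defensins. Those of Defa20, with Defa2, Defa32 and Defa33, and of Defa17, with Defa3, are better read as the level of a set. Across the 22 protein coding genes the number of reads did not follow this share (Spearman rho = 0.08, a description).

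**Figure D1:**
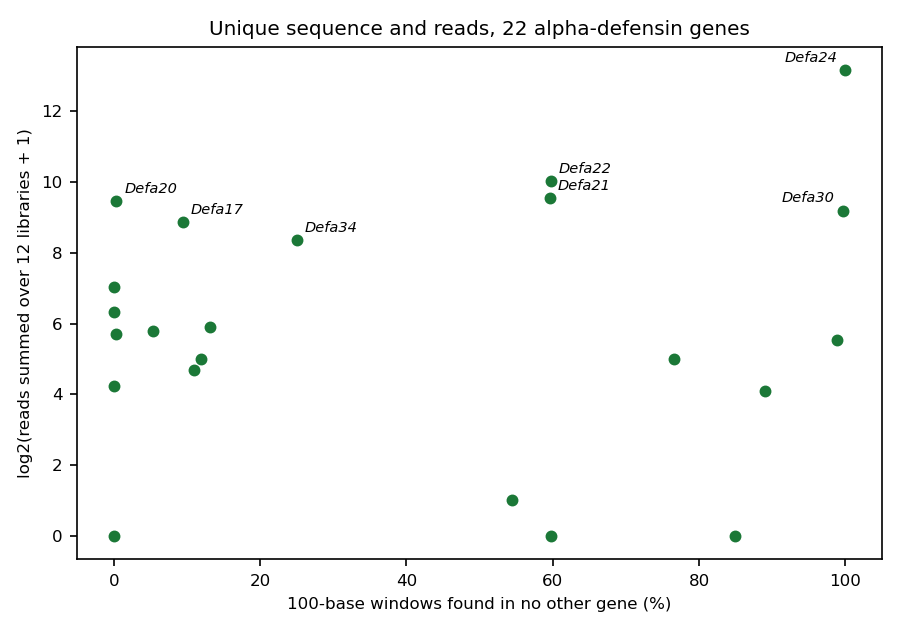
Share of 100-base transcript windows found in no other annotated gene (x axis, %) against reads summed over the 12 libraries (y axis, log2 of reads plus 1), for the 22 protein coding alpha-defensins. Defa24 had 9151 reads and only windows of its own, whereas Defa20 had 702 reads and 0.307% of windows of its own.

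Most tested members stood higher in NEC than in control tissue, with Mmp7, Defa24, Defa17, Lyz1 and the Defa20 row past the threshold in both genotypes. With its near copies summed, an alternative added after the data were examined, Defa20 passed in neither (adjusted p = 0.102 in CKO and 0.0510 in flox mice, limma). In flox mice, 9 of 13 tested members were higher and 0 lower at an adjusted p under 0.05 (limma on log2 of FPKM plus 1, Benjamini-Hochberg over all genes tested). Calls were common, since 28.6% of the 13798 genes tested there were called higher and 27.7% lower. In CKO mice, 5 of 11 tested members were higher and 0 lower, against 17.4% and 20.3% of 13420 genes. NEC and control libraries did not overlap, with NEC higher, for 7 members in flox mice (33.2% of all genes) and 5 in CKO mice (25%). The median log2 change over the tested members was 1.89 in CKO and 2.44 in flox mice, and over all genes tested it was -0.02 and 0.01. Over the alternatives the members' median ran from 0.71 with no filter to 3.73 by limma-voom in CKO mice, and from 0.96 with no filter to 3.49 without flox control library 3 in flox mice. A gene was tested where 3 of the 6 libraries had at least 1 FPKM. Of the tested members, 7 of 11 in CKO and 6 of 13 in flox mice had a single control library at that level. In CKO mice 1 more, Mmp7, had none. These members thus passed mainly through the group where they are high. The counts and medians therefore describe the genes that passed and support nothing. On the tables' own scaling, an alternative added after the data were examined, calls over all genes were 3140 higher and 2062 lower in CKO mice and 4906 and 3123 in flox mice. Jointly scaled, they were 2331 and 2727 in CKO mice and 3950 and 3822 in flox mice. The median of all genes was 0.10 in CKO and 0.14 in flox mice on the tables' own scaling. As the RNA came from whole tissue, fewer cells of a type and less RNA per cell cannot be told apart.

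Mmp7 (chr9:7692090-7699585), the activating protease, had the smallest p among members in both genotypes. It stood at 5.86, 20.6 and 7.54 FPKM in CKO NEC libraries 1 to 3, against 0.835, 0.466 and 0.873 FPKM in CKO control. In flox mice it stood at 16.1, 18.04 and 18.8 FPKM in NEC and 0.191, 1.30 and 1.47 FPKM in control. Within each genotype every NEC library lay above every control library, and the CKO NEC libraries spread more widely than those of flox NEC. Its log2 change was 2.66 ± 0.40 (SE, adjusted p = 0.00429, limma) in CKO and 3.30 ± 0.27 (adjusted p = 0.000135) in flox mice. In CKO mice no control library reached 1 FPKM, so Mmp7 was tested there only through its NEC libraries.

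Defa24 (chr8:21734494-21735471) was the most abundant member per length in each of the 12 libraries. It was at 182.8, 197.6 and 107.7 FPKM in CKO NEC, against 11.1, 7.64 and 42.1 FPKM in CKO control. In flox mice it was at 245.3, 265.0 and 240.8 FPKM in NEC and at 10.04, 31.2 and 44.1 FPKM in control. The conditions did not overlap in either genotype. Group means were 162.7 ± 48.2 FPKM in CKO NEC, 250.3 ± 12.9 in flox NEC, 20.3 ± 18.98 in CKO control and 28.5 ± 17.2 in flox control (SD, n = 3 each). The log2 change was 3.26 ± 0.57 (SE, adjusted p = 0.00645, limma) in CKO and 3.32 ± 0.46 (adjusted p = 0.000915) in flox mice.

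Lyz1 (chr10:117287797-117292868) had a far less even control group. It stood at 37.9, 10.6 and 6.17 FPKM in CKO NEC, against 0.217, 0.0563 and 6.08 FPKM in CKO control. In flox NEC it stood at 31.9, 31.7 and 31.1 FPKM, against 0.376, 0.716 and 13.1 FPKM in flox control. In both genotypes control library 3 held most of the control signal, and in CKO mice it came close to the lowest NEC library. The log2 change was 2.82 ± 0.85 (SE, adjusted p = 0.0374, limma) in CKO and 3.34 ± 0.79 (adjusted p = 0.00917) in flox mice. In CKO mice it no longer passed with 1 of 4 libraries left out, namely NEC library 1 (adjusted p = 0.104) or 2 (0.0766) and control library 1 (0.103) or 2 (0.102).

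Itln1 (chr1:171518122-171535294) followed the pattern of Lyz1. It stood at 15.1, 3.09 and 1.75 FPKM in CKO NEC, against 0.481, 0.125 and 3.58 FPKM in CKO control. Flox libraries stood at 16.3, 14.8 and 10.3 FPKM in NEC and at 0.119, 0.122 and 7.11 FPKM in control. The CKO conditions overlapped and those of flox mice did not. The change passed the threshold in flox mice, at 2.75 ± 0.72 (SE, adjusted p = 0.0139, limma), and missed it in CKO mice, at 1.52 ± 0.74 (adjusted p = 0.145). The interaction, which was fitted on the deposited values and not on these rescaled ones, was -1.25 ± 1.17 for Itln1 (SE, adjusted p = 0.592, limma).

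Ang4 (chr14:51763878-51773590) was the lowest of the 4 other products in reads, resting on 5 to 40 a library. It stood at 1.24, 2.07 and 1.60 FPKM in CKO NEC, against 1.06, 1.51 and 3.24 FPKM in CKO control. In flox NEC it stood at 3.02, 3.24 and 3.73 FPKM, against 0.478, 1.47 and 2.01 FPKM in flox control. It was higher in NEC in flox mice (log2 change of 0.96 ± 0.25 SE, adjusted p = 0.0143, limma), but not with flox NEC library 3 left out (adjusted p = 0.0505). In CKO mice the conditions overlapped and the change was -0.10 ± 0.28 (adjusted p = 0.796).

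**Figure D2:**
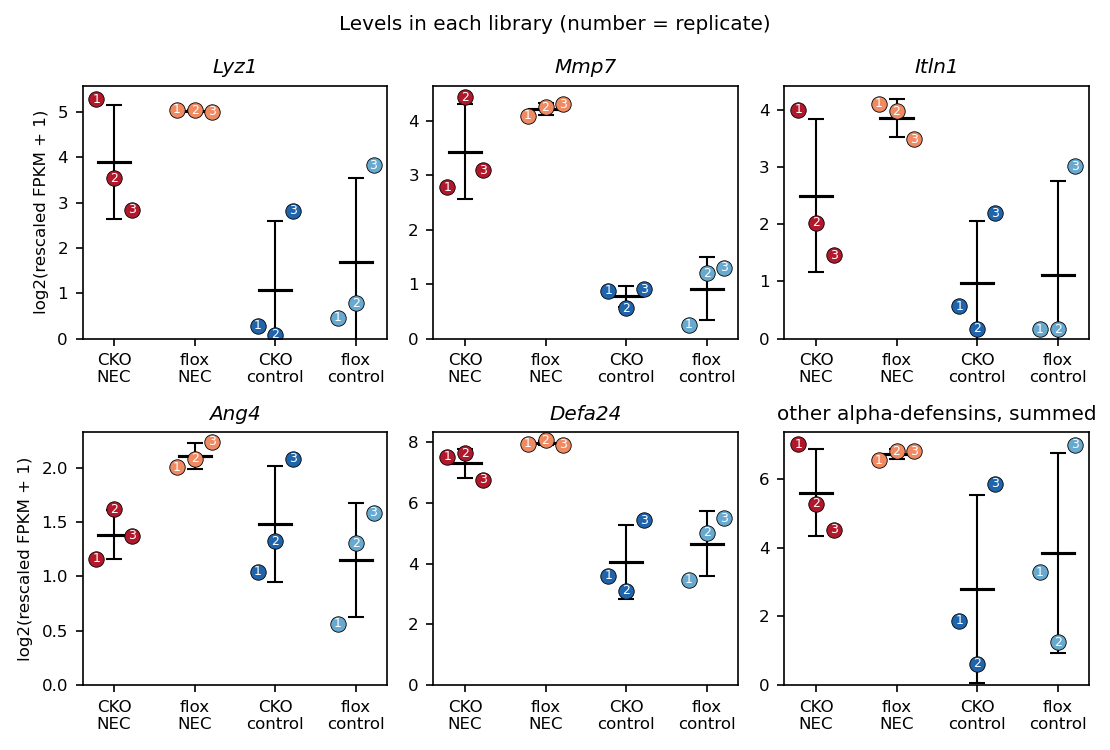
Level of Lyz1, Mmp7, Itln1, Ang4, Defa24 and the sum of all other alpha-defensins in each library (y axes, log2 of rescaled FPKM plus 1, with scales that differ between panels). Points are libraries numbered by replicate, and lines are the mean and SD over 3 libraries. Control library 3 of both genotypes stands above control libraries 1 and 2 for Lyz1, Itln1 and the summed alpha-defensins.

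The other abundant alpha-defensins split the control libraries further. Defa22 (chr8:21162277-21163249) stood at 24.8, 5.75 and 6.99 FPKM in CKO NEC, against 0, 0 and 17.6 FPKM in CKO control. Flox libraries had 19.2, 23.9 and 22.6 FPKM in NEC and at 1.46, 0 and 40.9 FPKM in control. A count of 0 allows up to 0.491 FPKM in CKO control library 1 and 0.509 FPKM in library 2, and flox control library 3 had the highest Defa22 level of all 12 libraries. The change missed the threshold in both genotypes, at 2.07 ± 1.14 (SE, adjusted p = 0.189, limma) in CKO and 2.28 ± 1.20 (adjusted p = 0.142) in flox mice. With control library 3 left out it was 3.48 (adjusted p = 0.0104, limma) in CKO and 3.86 (adjusted p = 0.000194) in flox mice. That library is the highest control in each genotype, so leaving it out favours a pass and supports nothing.

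Defa21 (chr8:21025545-21026516) and Defa30 (chr8:21134642-21135598) had the same high control library. Defa21 was at 21.7, 3.09 and 2.39 FPKM in CKO NEC, against 0, 0 and 12.4 in CKO control, and at 14.4, 18.6 and 17.3 in flox NEC, against 1.14, 0.166 and 24.3 in flox control. Defa30 was at 17.4, 4.43 and 3.34 FPKM in CKO NEC, against 0, 0 and 12.98 in CKO control, and at 8.42, 13.1 and 8.31 in flox NEC, against 0.682, 0.699 and 25.7 in flox control. Both overlapped between conditions in each genotype and missed the threshold, with changes of 1.52 ± 1.13 and 1.65 ± 1.06 in CKO and 2.15 ± 1.01 and 1.34 ± 0.99 in flox mice (SE). With control library 3 left out, adjusted p was 0.0444 and 0.0179 in CKO and 0.000113 and 0.000117 in flox mice (limma). As it is the highest control library for both genes, leaving it out favours a pass and supports nothing.

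Defa20 (chr8:21509258-21510237) shares nearly all of its windows with Defa2, Defa32 and Defa33, and both its own row and the summed set are given. The level of the row was 20.9, 5.80 and 3.45 FPKM in CKO NEC, against 0, 0 and 2.03 in CKO control. Flox mice had 14.98, 19.5 and 21.3 FPKM in NEC, against 0.958, 0 and 16.1 in control, where library 3 reached the NEC range. The change was 2.59 ± 0.66 (SE, adjusted p = 0.0205, limma) in CKO and 2.59 ± 0.92 (adjusted p = 0.0442) in flox mice. In CKO mice it no longer passed with control library 1 or 2 left out (adjusted p = 0.0602 and 0.0601). In flox mice it passed with control library 3 left out and with none of the other 5 (adjusted p of 0.0879 to 0.126). Summed with its copies, the level was 23.8, 6.22 and 3.76 FPKM in CKO NEC, against 0, 0.167 and 7.42 FPKM in CKO control. The summed level was 17.02, 21.2 and 32.5 FPKM in flox NEC, against 2.55, 0 and 18.4 FPKM in flox control. The set thus overlapped between conditions in both genotypes, with CKO control library 3 above CKO NEC libraries 2 and 3. Its change was 2.15 ± 0.91 (SE, adjusted p = 0.102, limma) in CKO and 2.53 ± 0.94 (adjusted p = 0.0510) in flox mice.

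Defa17 (chr8:21655780-21656735) and Defa34 (chr8:21665797-21666732) stayed below 4 FPKM in each control library. Defa17 was at 16.04, 5.03 and 3.19 FPKM in CKO NEC, against 2.25, 0.179 and 1.81 in CKO control, and at 12.5, 14.1 and 13.3 in flox NEC, against 1.03, 0.350 and 3.94 in flox control. Its change was 1.77 ± 0.57 (SE, adjusted p = 0.0463, limma) in CKO and 2.59 ± 0.42 (adjusted p = 0.00173) in flox mice, and the conditions did not overlap in either. In CKO mice it passed with NEC library 3 left out and with none of the other 5 (adjusted p of 0.0555 to 0.117). Summed with its copy Defa3, it passed in both genotypes, with changes of 1.89 ± 0.57 (adjusted p = 0.0367) in CKO and 2.55 ± 0.47 (adjusted p = 0.00305) in flox mice. Defa34 was at 14.2, 5.48 and 0.710 FPKM in CKO NEC, against 0, 0 and 2.30 in CKO control, and at 11.6, 7.66 and 8.47 in flox NEC, against 0.362, 0 and 3.79 in flox control. It passed in flox (2.44 ± 0.53 SE, adjusted p = 0.00639, limma) and missed the threshold in CKO mice (1.89 ± 0.81, adjusted p = 0.104), where the conditions overlapped. With CKO NEC library 3 left out it passed there too (adjusted p = 0.0206, limma), but that is its lowest NEC library, so leaving it out favours a pass. Defa3, a copy of Defa17, was at 0.980, 2.18 and 1.94 FPKM in flox NEC, against 0.496, 0 and 1.04 FPKM in flox control, with a change of 0.87 ± 0.30 (SE, adjusted p = 0.0390, limma). It no longer passed with flox control library 1 or 2 left out (adjusted p = 0.0795 and 0.0935).

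**Figure D3:**
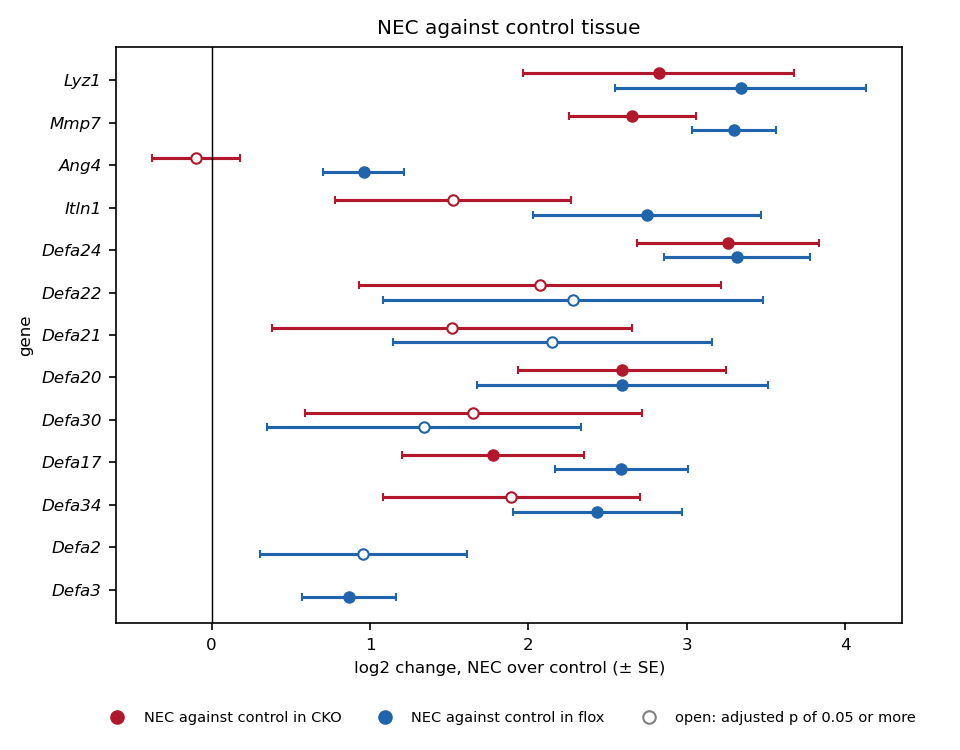
Log2 change of NEC over control tissue (x axis) with its SE for the members tested in CKO mice (red) and flox mice (blue), 3 libraries a group. Filled points passed an adjusted p of 0.05, and Mmp7, Defa24, Defa17, Lyz1 and the Defa20 row did so in both genotypes (the Defa20 set in neither), while Ang4 in CKO mice lay near 0.

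The 9 members that had reads and were tested nowhere totalled 1 to 51 reads each over the 12 libraries and reached at most 2.53 deposited FPKM. Defa2, Defa26, Defa36, Defa37 and Defa-ps6 were tested in some comparisons and called in 0 of them. Summed as a set, Defa36 and Defa37 were higher in NEC in flox mice, by 1.65 ± 0.34 (SE, adjusted p = 0.00518, limma). That set was formed after the data were examined, and neither gene was tested alone there. It rested on 16, 29 and 15 reads in flox NEC, against 0, 0 and 7 in flox control. It thus passed the filter mainly through NEC, and its change supports nothing. Over all 39 alpha-defensin rows, the summed level was 310.8, 235.6 and 129.7 FPKM in CKO NEC libraries, against 13.8, 8.18 and 99.4 FPKM in CKO control. It was 338.3, 376.3 and 352.4 FPKM in flox NEC, against 18.8, 32.6 and 171.7 FPKM in flox control. This total did not overlap between conditions in either genotype, although flox control library 3 stood above CKO NEC library 3. Without Defa24 the sum overlapped in both genotypes. It was then 128.0, 38.1 and 22.1 FPKM in CKO NEC, against 2.67, 0.535 and 57.3 FPKM in CKO control. In flox mice it was 93.1, 111.3 and 111.6 FPKM in NEC, against 8.76, 1.38 and 127.6 FPKM in control. The separation of the total thus rested on Defa24.

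**Figure D4:**
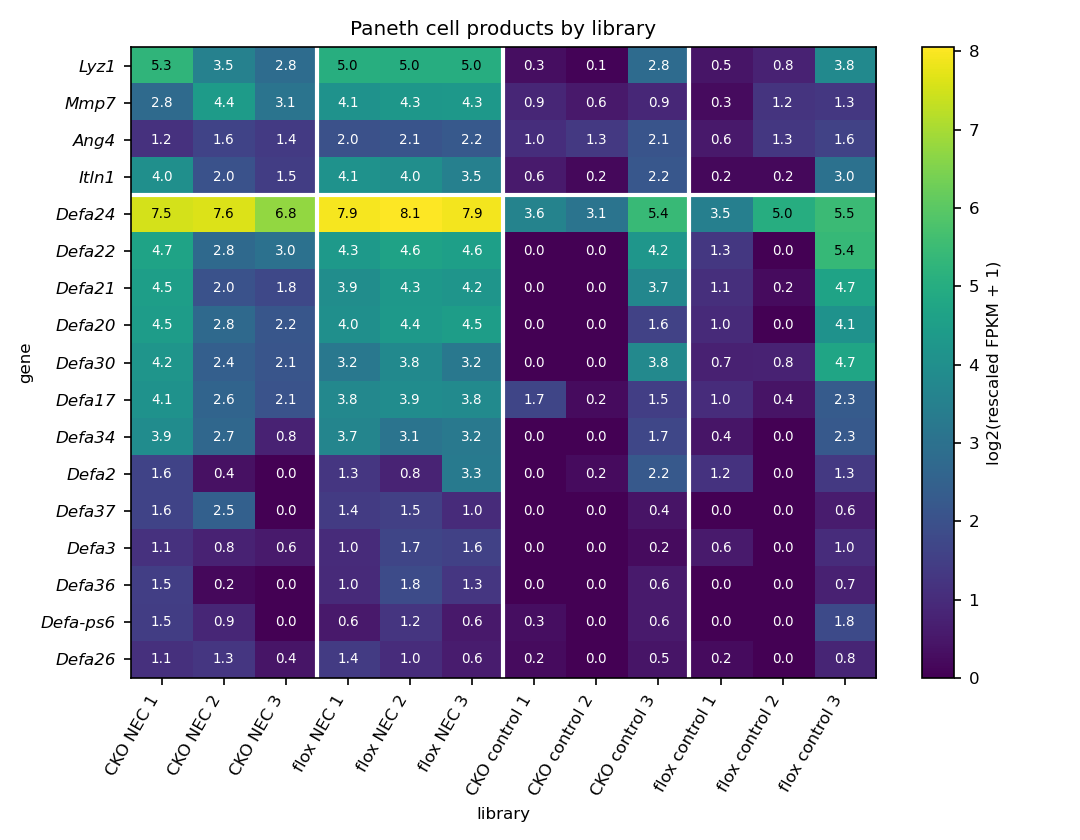
Level of the 17 members tested in at least 1 comparison in each of the 12 libraries, as log2 of rescaled FPKM plus 1 (colour and printed value). Columns run from CKO NEC to flox control. Defa24 is the highest row in each library, and control library 3 of both genotypes carries alpha-defensins that control libraries 1 and 2 nearly lack.

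The make-up of the alpha-defensin reads differed between libraries. Defa24 took 59.5%, 84.4% and 83.3% of them in CKO NEC libraries 1 to 3, against 81.9%, 93.8% and 42.9% in CKO control. It took 73.1%, 71.0% and 68.7% in flox NEC, against 53.9%, 95.9% and 26.2% in flox control. Within each genotype, control library 3 had the lowest share. The 95% Wilson intervals, which cover counting error only, were 38.9% to 47.0% in CKO control library 3 and 23.5% to 29.0% in flox control library 3. They were 72.3% to 88.7% in CKO control library 1, which had 83 alpha-defensin reads, and 83.2% to 97.9% in library 2, which had 48. In flox control they were 44.8% to 62.7% in library 1 and 92.2% to 97.9% in library 2. In CKO mice the intervals of control libraries 1 and 2 overlapped, and both lay above that of library 3. In flox mice control libraries 1 and 2 also lay apart from each other, so library 3 was not alone in its mixture. Defa22 took 2.46% to 8.07% of the reads in the 6 NEC libraries, against 18.0% in CKO control library 3 and 24.3% in flox control library 3.

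**Figure D5:**
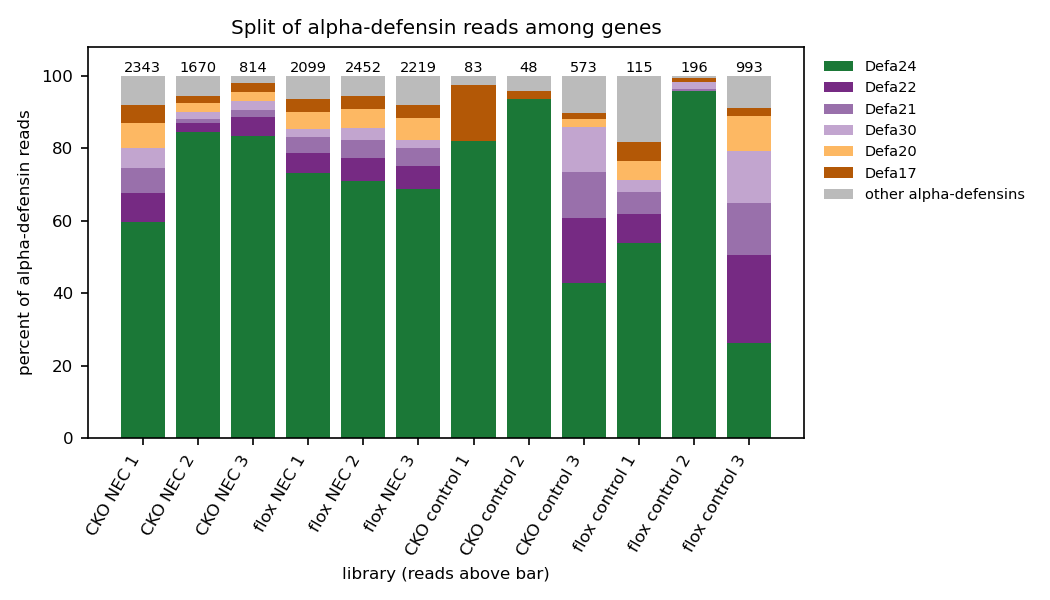
Split of alpha-defensin reads among genes in each library (y axis, percent of the reads on all 39 alpha-defensin rows, with that number of reads printed above each bar). Defa24 holds 59.5% to 84.4% of the reads in NEC libraries but 42.9% and 26.2% in control library 3 of CKO and flox mice.

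In NEC tissue most members stood lower in CKO than in flox mice, but 0 of 16 tested members passed the threshold, as did 0% of the 13673 genes tested. Below 0 stood 15 of the 16 changes, against 47.5% over all genes. At an unadjusted p under 0.05, 3 members (Ang4, Defa24 and Defa3) were lower, against 2.21% of all genes lower and 4.38% in either direction. Summed with its copy Defa17, an alternative added after the data were examined, Defa3 had a change of -0.96 ± 0.45 (SE). That set did not reach an unadjusted p under 0.05. By limma-voom on recovered reads, 0 genes passed at an adjusted and 577 at an unadjusted p under 0.05. The median log2 change was -0.87 over the tested members and 0.01 over all genes tested. Defa3 and Defa36 each met the filter with 3 flox libraries and 1 CKO library at 1 FPKM, and Defa2 with 2 and 1. These members thus passed mainly through the group where they are high. The counts and the median of the members therefore describe the genes that passed. Ang4 and Defa24 reached 1 FPKM in all 3 libraries of each genotype. CKO and flox libraries did not overlap for 2 members, Ang4 and Defa24, both lower, against 6.14% of all genes.

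Deposited FPKM of Ang4 averaged 1.76 ± 0.457 in CKO NEC and 3.62 ± 0.379 in flox NEC (SD, n = 3 each), a log2 change of -0.75 ± 0.15 (SE, adjusted p = 0.840, limma). Defa24 averaged 175.5 ± 53.7 FPKM in CKO NEC and 271.9 ± 13.99 FPKM in flox NEC, with a change of -0.68 ± 0.24 (SE, adjusted p = 0.840, limma). Both genes were lower in each CKO NEC library than in each flox NEC library. The other abundant members overlapped. Changes were -1.40 ± 0.66 for Defa21, -1.39 ± 0.61 for Itln1, -1.18 ± 0.54 for Defa20, -1.16 ± 0.55 for Lyz1, -1.05 ± 0.47 for Defa22, -0.94 ± 0.47 for Defa17, -0.80 ± 0.39 for Mmp7 and -0.52 ± 0.52 for Defa30 (SE). The exception to the direction was Defa37, at 0.03 ± 0.58.

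The 3 CKO NEC libraries did not rank the members alike. Lyz1, Defa17, Defa20, Defa21, Defa22, Defa30 and Itln1 were highest in library 1, whereas Mmp7 and Ang4 were highest in library 2 and lowest in library 1. With CKO NEC library 1 left out, the median change of the members was -1.33 and Defa21 passed the threshold (-2.28, adjusted p = 0.0297, limma), the 1 gene to do so. Leaving out the highest CKO NEC library for Defa21 favours such a pass. With CKO NEC library 3 left out the median was -0.58.

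Markers of goblet cells, the mucus-secreting cells of the epithelium, also differed between these libraries. The summed level of 9 goblet genes was 529.3, 1262 and 775.7 FPKM in CKO NEC libraries 1 to 3, against 892.0 to 1407 FPKM in flox NEC. The mucin Muc2 was at 19.8, 109.2 and 56.9 FPKM in those CKO libraries, and Gata4, a transcription factor of the proximal small intestine, was at 13.6, 0.316 and 0.903 FPKM. Library 1, with the highest Lyz1, was thus the lowest in the goblet sum and in Muc2, and the highest in Gata4. Of the 9 goblet genes, Zg16 was the exception and stood highest in library 1, at 27.7, 26.2 and 13.8 FPKM. The summed level of 6 smooth muscle genes was 522.8 to 2049 FPKM in CKO NEC and 1813 to 2855 FPKM in flox NEC. The part of these differences in the members' levels was not tested.

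In control tissue, 6 members were tested between genotypes and 0 were called, against 0.00752% of 13300 genes (1 gene). At an unadjusted p under 0.05, 0 members and 28.9% of all genes passed, and limma-voom called 0 members and 735 genes. Changes ran from -0.82 ± 1.60 for Defa22 to 0.33 ± 0.35 for Ang4 (SE), and that of Defa24 was -0.61 ± 0.71. The median was -0.36 over the tested members and 0.04 over all genes. It was 0.18 over 2 tested members with flox control library 3 left out and 0.08 with CKO control library 2 left out. SEs of the members ran from 0.35 to 1.60, against 0.15 to 0.71 in NEC tissue.

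The interaction, which asks whether the genotype difference is another in NEC than in control tissue, called 0 of 17 tested members and 1.22% of 14808 genes (31 higher and 150 lower). With library medians made equal, the split over all genes was 9 higher and 24 lower, and under quantile normalization it was 90 and 157. At an unadjusted p under 0.05, 1 member and 20.8% of all genes passed, and limma-voom called 0 members and 160 genes. That member was Ang4, with a change of -1.08 ± 0.41 (SE, adjusted p = 0.160, limma). The median was -0.54 over the tested members and -0.02 over all genes, but it ran from -1.23 without flox control library 3 to 0.16 without CKO control library 3, and was -0.11 by limma-voom.

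In a list of 12 fate and maturation factors, which is not specific to Paneth cells, Atoh1, Spdef and Sox9 rose with NEC in both genotypes. Nr2e3 and Dll1 fell in both. Of the 12 listed, 4 of 9 tested rose and 3 fell in CKO mice (median 0.43), and 5 of 10 rose and 2 fell in flox mice (median 0.40). Over all genes tested, 17.4% rose and 20.3% fell in CKO mice and 28.6% rose and 27.7% fell in flox mice, and the counts of each list are to be read against these shares. Atoh1, the transcription factor needed for secretory cells, averaged 4.83 ± 1.61 FPKM in CKO NEC and 1.27 ± 0.520 in CKO control, and 6.09 ± 2.41 in flox NEC and 0.689 ± 0.142 in flox control (SD, n = 3 each). Its log2 change was 1.35 ± 0.24 (SE, adjusted p = 0.00686, limma) in CKO and 2.02 ± 0.23 (adjusted p = 0.000438) in flox mice. Spdef, which drives maturation of secretory cells, rose by 1.22 ± 0.25 in CKO and 1.07 ± 0.18 in flox mice. The nuclear receptor gene Nr2e3 had changes of -1.99 ± 0.30 and -2.34 ± 0.41, and the Notch ligand gene Dll1 of -0.74 ± 0.14 and -0.92 ± 0.20, so that both fell. Sox9, which Paneth cells need to form, rose by 0.84 ± 0.25 (adjusted p = 0.0371) and 0.78 ± 0.28 (adjusted p = 0.0436).

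Of 10 genes of the Wnt and Eph pathways, which hold Paneth cells at the crypt base, 5 of 9 tested rose in CKO (median 0.57) and 4 of 9 in flox mice (median 0.40), and 0 fell in either. Fzd5, the Wnt receptor that Paneth cells need to mature, stood at 27.5, 20.6 and 21.96 FPKM in CKO NEC, against 8.15, 8.04 and 7.30 FPKM in CKO control. In flox mice it stood at 20.2, 23.3 and 21.02 FPKM in NEC, against 5.39, 5.87 and 5.04 FPKM in control. Unlike Lyz1, it was even across the control libraries. It rose by 1.45 ± 0.14 (SE, adjusted p = 0.00152, limma) in CKO and 1.81 ± 0.11 (adjusted p = 6.07e-05) in flox mice. Ephb2, an Eph receptor of the lower crypt, rose by 1.32 ± 0.21 and 1.41 ± 0.15, and the stem cell gene Lgr5 by 1.35 ± 0.18 and 1.32 ± 0.18.

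Among 13 genes of granule secretion, zinc transport and sensing, 2 of 10 tested rose and 1 fell in CKO mice (median 0.13), and 5 rose and 1 fell in flox mice (median 0.33). In CKO mice these counts were near or below the shares of all genes, 17.4% and 20.3%. Kcnn4, a calcium-activated potassium channel of Paneth cells, rose by 1.75 ± 0.25 (SE, adjusted p = 0.00403, limma) in CKO and 1.42 ± 0.16 (adjusted p = 0.000367) in flox mice. Cd24a, a surface protein high on Paneth cells, rose by 0.85 ± 0.24 and 1.02 ± 0.15. The zinc transporter gene Slc30a4 rose by 1.29 ± 0.20 in flox mice and stood at 0.15 ± 0.20 in CKO mice (adjusted p = 0.593). The autophagy gene Atg5 had a change of -0.56 ± 0.16 in CKO mice (adjusted p = 0.0295) and -0.27 ± 0.12 in flox mice (adjusted p = 0.0845). Slc30a2, the granule zinc transporter, had changes of -0.48 ± 0.28 and 0.14 ± 0.28, neither past the threshold.

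Of 16 products related to the members, 3 of 5 tested rose and 2 fell in CKO mice (median 2.43), and 3 of 7 rose and 2 fell in flox mice (median 0.77). The lectin gene Reg3a rose by 2.43 ± 0.40 (SE, adjusted p = 0.00556, limma) in CKO and 1.99 ± 0.36 (adjusted p = 0.00267) in flox mice. Its relative Reg3b spread widely, at 53.1, 1268 and 158.9 FPKM in CKO NEC, against 7.87, 20.4 and 14.6 FPKM in CKO control, with a change of 3.95 ± 1.04 (adjusted p = 0.0231). Ang, a relative of Ang4 made in many tissues, had changes of -2.65 ± 0.23 (adjusted p = 0.00124) in CKO and -3.16 ± 0.13 (adjusted p = 4.38e-05) in flox mice, opposite in direction to Ang4 in flox mice. Lyz2, the lysozyme of macrophages, had a change of -1.24 ± 0.14 (adjusted p = 0.00217) in CKO mice and of -0.43 ± 0.39 (adjusted p = 0.376) in flox mice. The antimicrobial peptide gene Camp had a change of -1.25 ± 0.23 (adjusted p = 0.00300) in flox mice.

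Between genotypes, 0 genes of these 4 lists passed in either condition or for the interaction. The log2 changes with the smallest p in NEC tissue were -0.35 ± 0.20 for Klf15 and 0.43 ± 0.33 for Nr2e3 among fate factors, 0.33 ± 0.21 for Ascl2 and 0.24 ± 0.16 for Axin2 among Wnt and Eph genes, -0.49 ± 0.21 for Cd24a and -0.18 ± 0.16 for Nupr1 among granule genes, and -0.40 ± 0.14 for Lyz2 and 0.23 ± 0.16 for Ang among related products (SE). In control tissue they were -0.41 ± 0.17 for Spdef and -0.36 ± 0.17 for Dll4, 1.13 ± 0.27 for Ctnnb1 and 0.46 ± 0.11 for Fzd5, 1.01 ± 0.23 for Slc30a4 and 0.48 ± 0.11 for Furin, and -0.49 ± 0.33 for Camp and -0.27 ± 0.21 for Ang.

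Maturation genes differed between conditions along with the members. Of 10 genes that switch around weaning, 1 rose and 7 fell in CKO mice and 1 rose and 6 fell in flox mice, with 9 tested in each. Sis, a sugar-digesting enzyme that appears as pups wean, was at 36.9 to 117.7 FPKM in CKO NEC and 67.98 to 167.9 FPKM in flox NEC, against 0.953 to 1.38 in CKO control and 0.717 to 1.17 in flox control. Fcgrt, the receptor that takes up maternal antibody in suckling rodents, was at 76.8 to 134.5 FPKM in CKO NEC and 68.1 to 96.4 FPKM in flox NEC, against 1099 to 1493 in CKO control and 579.5 to 1107 in flox control. Ass1, an enzyme of arginine synthesis, had changes of -2.74 ± 0.31 and -2.43 ± 0.21, and Amn, part of an endocytic receptor, of -2.16 ± 0.28 and -2.34 ± 0.17. The part of any age difference between the groups in the members' levels was not tested.

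Markers of other cell types moved as well, against 17.4% of all genes higher and 20.3% lower in CKO mice and 28.6% and 27.7% in flox mice. Goblet genes rose in 4 of 9 tested in CKO and 7 of 9 in flox mice, with 0 lower, and summed to 496.0 to 758.9 FPKM in CKO control and 496.5 to 648.9 in flox control, below most of the NEC sums given above. Enterocyte genes fell in 3 of 8 in CKO and 4 of 8 in flox mice. They summed to 8369 to 11916 FPKM in CKO NEC and 6519 to 10397 in flox NEC, against 18099 to 27049 in CKO control and 19822 to 24925 in flox control. Most of each sum was Apoa1 and Apoa4, so it says little of the other enterocyte genes. Fabp2 had changes of 0.41 ± 0.31 in CKO and 0.27 ± 0.45 in flox mice (SE). Anpep had 0.09 ± 0.24 and 0.15 ± 0.16, and the other 6 changes lay below 0 in each genotype. Crypt stem cell genes rose in 2 of 8 in each genotype, near those shares, and summed to 89.9 to 169.98 FPKM in CKO NEC and 94.2 to 112.5 in flox NEC, against 57.1 to 68.2 in CKO control and 49.3 to 74.7 in flox control. Among them Slc12a2 differed most in FPKM, averaging 50.2 in CKO NEC and 53.3 in flox NEC, against 11.5 in CKO control and 9.78 in flox control. Enteroendocrine genes rose in 1 and fell in 4 of 9 in CKO mice, and rose in 2 and fell in 5 of 9 in flox mice. Their sums were 128.9 to 209.8 FPKM in CKO NEC and 165.3 to 210.8 in flox NEC, against 320.1 to 414.7 in CKO control and 440.2 to 518.5 in flox control. Smooth muscle genes rose in 1 of 5 in CKO mice, and rose in 5 and fell in 1 of 6 in flox mice, with sums in control tissue of 189.7 to 606.1 FPKM in CKO and 692.1 to 884.6 in flox mice. Macrophage genes rose in 0 and fell in 4 of 6 in CKO mice, and rose in 1 and fell in 3 of 7 in flox mice. They summed to 42.2 to 57.4 FPKM in CKO NEC and 54.4 to 65.1 in flox NEC, against 123.3 to 137.0 in CKO control and 127.1 to 142.5 in flox control. Neutrophil genes fell in 1 of 1 and 2 of 2 tested, and acinar genes in 2 of 3 in each genotype. Neutrophil genes summed to 1.25 to 4.76 FPKM in CKO NEC and 2.17 to 2.74 in flox NEC, against 7.54 to 10.95 in CKO control and 6.10 to 8.19 in flox control. In control tissue most of that sum was Ltf and Camp, and the other listed neutrophil genes stayed below 1 FPKM in each library. Of these, S100a9 averaged 0.709 FPKM in flox NEC against 0.219 in flox control, and 0.348 in CKO NEC against 0.318 in CKO control. The sum thus does not show how neutrophil markers as a whole moved. Of 13 acinar genes, Cela2a and Try4 were at 0 in all 12 libraries. No tuft or mast cell gene passed the filter. The part of these cell types in the members' levels was not tested.

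Control library 3 differed from control libraries 1 and 2 in genes of the distal small intestine as well, from a list added after the data were examined. Slc51b, a bile acid exporter, was at 27.95, 31.1 and 169.7 FPKM in CKO control and 78.6, 65.4 and 229.7 FPKM in flox control. Fabp6, the ileal bile acid binding protein, was at 17.5, 31.8 and 59.9 FPKM in CKO control and 46.2, 29.03 and 501.4 FPKM in flox control. The proximal factor Gata4 was at 9.49, 8.55 and 14.8 FPKM in CKO control and 11.1, 15.2 and 0.948 FPKM in flox control. Both libraries numbered 3 were thus higher in the bile acid genes, while Gata4 was low in that of flox mice alone. The part of the sampled segment in the members' levels was not tested.

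Some genes outside the set followed the members from library to library. For the 14688 genes with at least 1 FPKM in 3 of the 12 libraries, likeness was measured as Pearson's r between a gene's deviations from its group means and the mean deviation of the tested members. The 10 genes most alike were Pla2g2a (r = 0.99), Klf15 (0.97), Cilp (0.97), Abca1 (0.97), Lynx1 (0.96), Gm14851 (0.95), Fam57b (0.94), Gm11196 (0.94), Gm10163 (0.94) and Cdc25a (0.93). Over the 10 libraries without the control libraries numbered 3, r was 0.97 for Pla2g2a, 0.96 for Klf15, 0.94 for Gm14851 and 0.70 for Gm10163. These values are descriptions, and libraries that share a depth or a sampling share it in each gene. Pla2g2a encodes a secreted phospholipase of Paneth cells, and C57BL/6 mice carry a disrupted allele of it. It was at 1.54, 0.633 and 0 FPKM in CKO NEC and 0.650, 0.963 and 1.14 in flox NEC, against 0, 0 and 1.39 in CKO control and 0, 0 and 3.22 in flox control. Gm14851 (chr8:21095074-21096050) lies within the defensin cluster and matches the RefSeq gene Defa38, but its name in the files keeps it outside the rule.

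Among the members themselves, r with Lyz1 over the 12 libraries, after removal of group means, was 0.98 for Defa30, Itln1 and Defa21, and 0.94 for Defa22 and Defa20. It was 0.81 for Defa24, 0.62 for Ang4 and 0.14 for Mmp7. Over the 6 NEC libraries alone, r with Lyz1 was -0.41 for Mmp7 and -0.60 for Ang4. Among the abundant alpha-defensins, most thus varied with lysozyme from library to library, and Defa24 less so. The lowest r with Lyz1 was that of Mmp7 over the 12 libraries and that of Ang4 over the NEC libraries. Against the members' mean deviation, r was 0.78 for Defa24 and 0.59 for Ang4 over the 12 libraries. Over the 10 libraries without the control libraries numbered 3 it was 0.33 and -0.34, and 0.76 to 0.93 for Defa20, Defa21, Defa22 and Defa30. These correlations rest on 12, 10 or 6 points and carry no test.

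The start regions of members that varied together were read for ATCAAAG, the core that TCF/LEF factors bind in Wnt signalling, and TATAAA, the TATA box. The 120 bases before the start of Defa22 (chr8:21162157-21162276), Defa20 (chr8:21509138-21509257) and Lyz1 (chr10:117292869-117292988, minus strand) are shown from the RefSeq promoter table (GRCm38.p6), with any match to either motif in capitals. Of the 43 members, 16 were matched in that table.
Defa22: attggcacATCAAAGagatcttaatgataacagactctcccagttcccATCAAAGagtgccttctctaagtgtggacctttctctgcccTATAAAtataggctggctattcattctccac
Defa20: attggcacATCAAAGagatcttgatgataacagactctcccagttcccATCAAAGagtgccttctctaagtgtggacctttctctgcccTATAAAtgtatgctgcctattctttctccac
Lyz1: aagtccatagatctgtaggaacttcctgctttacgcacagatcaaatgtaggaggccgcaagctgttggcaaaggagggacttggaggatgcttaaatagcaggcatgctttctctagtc
Defa20, Defa21 and Defa22 each hold ATCAAAG at 2 places, 112 and 72 bases before the start, and TATAAA 31 bases before it. Defa30 holds each motif once in 250 bases. Lyz1, Itln1 and Ang4 hold neither in 250 bases. Searched on both strands, ATCAAAG occurs in 3.205% and TATAAA in 12.37% of 32851 promoters of 250 bases, and in the sequences shown no match overlaps another. A match is a description of the letters and not a binding site.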

How the data were processed

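Per the labels' protocols, RNA was isolated with Trizol and a NEBNext Ultra II kit was used for sequencing libraries. The aligner, the counting method and the genome build were not stated in the labels. The authors deposited FPKM in 2 tables of 54532 genes and 6 libraries each. The members and all gene lists were chosen with earlier results of these data known. FPKM times gene length gave whole reads within 0.05 for 100% of values, and each library held 13057724 to 16821130 such reads. For NEC against control these reads were scaled jointly, with median-of-ratios factors from 17568 genes; deposited NEC values stood 0.11 above and control values 0.04 below that scale (log2). Tests were limma 3.58.1 with a variance trend in R 4.3.3 on log2(FPKM + 1), so folds of low genes are understated, for genes with at least 1 FPKM in 3 of the fitted libraries. Benjamini-Hochberg adjustment ran over all genes tested, with a threshold of 0.05. Genotypes were compared within a condition on deposited FPKM. Scripts were tested on simulated data. By rule, the genes named were Lyz1, Mmp7, Ang4 and Itln1, the 6 alpha-defensins with the highest mean, up to 4 called members a comparison by p, up to 3 called genes a list by p (otherwise the 2 with the smallest p), and the 10 genes most like the members. Defa3, Defa37, Sox9, Slc30a2, Reg3b, Muc2, Gata4, Slc51b and Fabp6 were named after their values were seen. Coding sequences and transcript windows came from GENCODE M21. Alternatives were the pseudocount, the filter, the scaling, the variance trend, the fit over all 4 groups, a replicate block, limma-voom on recovered reads and leaving out libraries.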

Additional observations from a re-analysis of the deposited data

How the results depend on the processing

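With 1 library left out, called members numbered 0 to 1 between genotypes in NEC tissue, 6 to 11 for NEC against control in flox mice (9 with all) and 2 to 7 in CKO mice (5 with all). In CKO mice the count was 3 with no filter. Between genotypes in control tissue and for the interaction it was 0 under each alternative run. Summing near-identical alpha-defensins into sets, an alternative added after the data were examined, gave 8 called in flox and 4 in CKO mice. Defa24 passed in both genotypes with any 1 library left out (highest adjusted p = 0.0257, limma), as did Mmp7 in flox mice (highest adjusted p = 0.00116). In CKO mice Mmp7 reached 1 FPKM in NEC libraries only, so it was not tested with a NEC library left out. There it passed with any 1 control library left out (highest adjusted p = 0.0160, limma). Between genotypes in NEC tissue Defa37 was at -0.69 with a pseudocount of 0.1, at -0.63 by limma-voom and between -0.54 and 0.74 with 1 library left out. With 1 library left out, Defa17 in control tissue ran from -0.51 to 0.34, and Ang4 in CKO mice for NEC against control from -0.32 to 0.20. The cause was not tested. Over all genes, calls between genotypes in control tissue numbered 1, but 760 with a mean of at least 5 FPKM, 735 by limma-voom, 2166 with all 4 groups in 1 fit, 0 with no filter, 830 with flox control library 3 left out and 1345 with both control libraries numbered 3 left out. Interaction calls numbered 181, and 0 to 646 over the alternatives. Between genotypes in NEC tissue they numbered 0, and 2 with all 4 groups in 1 fit. For NEC against control they numbered 5058 in CKO mice, 3257 with the higher filter and 3025 to 4422 with 1 library left out, and in flox mice 7772, with 4876 under the higher filter. Same-numbered libraries did not as a rule deviate together (r of 0.18, -0.14 and 0.09 in NEC, 0.14 and -0.03 in control), so the numbers were not taken as pairs. The control libraries numbered 3 were the exception, with r of 0.37, against -0.12 to -0.32 with differently numbered control libraries of the other genotype. What these libraries share was not tested. With a replicate block 0 members were called between genotypes and for the interaction, and for NEC against control 9 were called in flox and 4 in CKO mice; 903 genes were called between genotypes in control tissue and 0 for the interaction. Low reads limit Ang4 and the rare alpha-defensins. Precision elsewhere is limited by 3 libraries a group, with library 3 apart from libraries 1 and 2 in both control groups.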

Other observations

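Alpha-defensin genes under other names lie in the same cluster. Of the 70 genes there that are no member, 6 protein coding genes overlap a RefSeq Defa gene, as do 5 snoRNA genes, which had 0 reads. AY761184, which overlaps Defa39, had 68 reads over the 12 libraries, Gm14851 (Defa38) had 63, Gm15293 (Defa41) had 41 and Gm7849 (Defa42) had 35. Gm7849 stood at 0, 3.13 and 0 rescaled FPKM in CKO NEC and at 0.824, 0 and 0.407 in flox NEC, against 0 in each control library.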
